A study of Mus musculus with 12 samples.

Results

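Notch signalling genes, 10 in all, were followed across 4 sorted populations of mouse embryonic stem cell progenitors: the receptors Notch1 and Notch2, the ligands Dll1, Dll4 and Jag1, the receptor modifier Lfng, and the transcriptional repressors Hey1, Hey2, Heyl and Hes1. The 10 genes were picked by name as parts of the pathway, with earlier results of these data known, from 18193 genes with a probe set annotated to 1 gene. They have 18 probe sets, and the probe set of each gene that was brightest on average over the 12 arrays stands for it. Of the 10 genes, 9 passed the filter on low values and were tested. The exception was Hey2, whose probe set lay under the median of each array.

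The cells were dissociated on day 6 from embryoid bodies, which are clumps of differentiating stem cells that form tissues of the early embryo, here started as hanging drops. Every population came from cells with the same pair of reporters, dsRed under a second heart field element and eGFP under a cardiac-specific enhancer, and no other treatment is named. Sorting gave double-negative, red-only, green-only and double-positive (red and green) cells, each with 3 Affymetrix arrays labelled A, B and C by experiment, made from 5 ug of total RNA. Groups were read from the titles, because the sort description misprints 1 population. The labels do not say whether the experiments were separate cultures, so p-values measure the spread between these arrays, which may be technical, and the number of arrays limits the precision. The line, the sex of the cells and the sequence of the enhancers are not given in the sources used here.

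Notch receptors are bound by Delta and Jagged ligands on a neighbouring cell, then cut first by ADAM proteases and next by gamma-secretase, which frees the intracellular domain to enter the nucleus. There it joins the DNA-binding protein Rbpj and turns on genes of the Hes and Hey families, whose products are repressors. In the embryo the pathway is known for roles in endothelial cells, in the endocardium and its valves, in the patterning of heart chambers and in the segmentation of presomitic mesoderm.

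Promoter windows, from 250 bases before to 50 after a start site, were in the RefSeq table (GRCm38.p6) for 7 of the 10 genes (8 windows). Hey1, Heyl and Hes1 had no window there and could not be searched. The 8 windows were searched on both strands for TGGGAA, a core of the motif bound by Rbpj, and for CACNTG, an E-box form, of which CACGTG is one spelling. TGGGAA was found in windows of Lfng and Hey2, and in 25.6% of all 32851 promoter windows of that length. CACNTG was found in windows of Dll1, Lfng and Hey2, and in 44.9% of all windows. Stretches of 60 bases from Lfng and Hey2 are shown because these genes are known Notch targets and one of them, Lfng, differed between the populations. They are written on the strand of the gene, with capitals marking the match, which reads TTCCCA where TGGGAA lies on the opposite strand.
Lfng, chr5:140607179-140607238, plus strand, match 135 bases before the start: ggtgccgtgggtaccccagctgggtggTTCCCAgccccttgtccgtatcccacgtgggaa
Lfng, chr5:140607206-140607265, plus strand, match 108 bases before the start: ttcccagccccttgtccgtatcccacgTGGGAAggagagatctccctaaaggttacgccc
Hey2, chr10:30842958-30843017, minus strand, match 207 bases before the start: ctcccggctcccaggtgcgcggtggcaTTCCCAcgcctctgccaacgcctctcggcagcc
In Lfng the 2 TGGGAA matches lie on opposite strands, and the one nearer the start overlaps a CACGTG. Hey2 has a further TGGGAA 3 bases before its start. Windows of Notch1, Notch2, Dll4 and Jag1 held neither motif. A match is a run of letters in a window, and binding was not measured.

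Medians of the arrays were 6.29 to 6.73 in intensity units. The summed level of 5 cardiomyocyte markers was 12589 to 15492 in double-positive, 7015 to 8719 in green-only, 2465 to 3714 in red-only and 265 to 422 in double-negative cells, so cardiac genes were highest with both reporters and lowest with neither. One array stood apart, green-only A, on which the log2 deviations of genes from the mean of their population had an SD of 0.192, compared with 0.102 to 0.150 on the other arrays. Calls of the members that change without it are given both ways.

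Members are called when their adjusted p in limma is under 0.05, adjusted by Benjamini-Hochberg over 13698 genes, and log2 fold changes are given ± SE on the scale of log2(intensity + 4.10). Because RNA was taken from whole populations, fewer cells of a type and less RNA per cell cannot be told apart. Between double-positive and double-negative cells 4 of 9 members were called, Jag1 higher and Notch2, Lfng and Hes1 lower in double-positive cells, where 13.9% of all genes were higher and 17.6% lower. Between red-only and double-negative cells 2 were called, Notch1 higher and Lfng lower, where the background was 10.9% higher and 12.7% lower. Between green-only and double-negative cells 1 was called, Lfng lower, against 9.33% of genes higher and 11.4% lower. Between double-positive and red-only cells 3 were called, Notch1, Hey1 and Hes1, all lower in double-positive cells, against 5.94% of genes higher and 6.15% lower. In this fit no member was called between double-positive and green-only cells (2.85% of genes higher, 2.77% lower). None was called between red-only and green-only cells either (1.32% higher, 1.76% lower). At an unadjusted p under 0.05 there were 3 of 9 members in the first and 1 of 9 in the second, where 18.4% and 15.0% of all genes had such a p. A limma fit with the experiment letter as a replicate block called Notch1 and Notch2 in the first (adjusted p = 0.0187 and 0.0258). It called Hey1 in the second (adjusted p = 0.00706). Against double-negative cells the median log2 fold change of the 9 members was -0.00 for red-only, -0.09 for green-only and -0.22 for double-positive cells, beside medians of -0.02, -0.01 and -0.01 over all genes. It was -0.02 in double-positive against red-only, -0.23 in double-positive against green-only and 0.13 in red-only against green-only cells, beside 0.00, 0.00 and -0.00 over all genes. The called members went in different directions or were few, and they are described one by one.

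**Figure D1:**
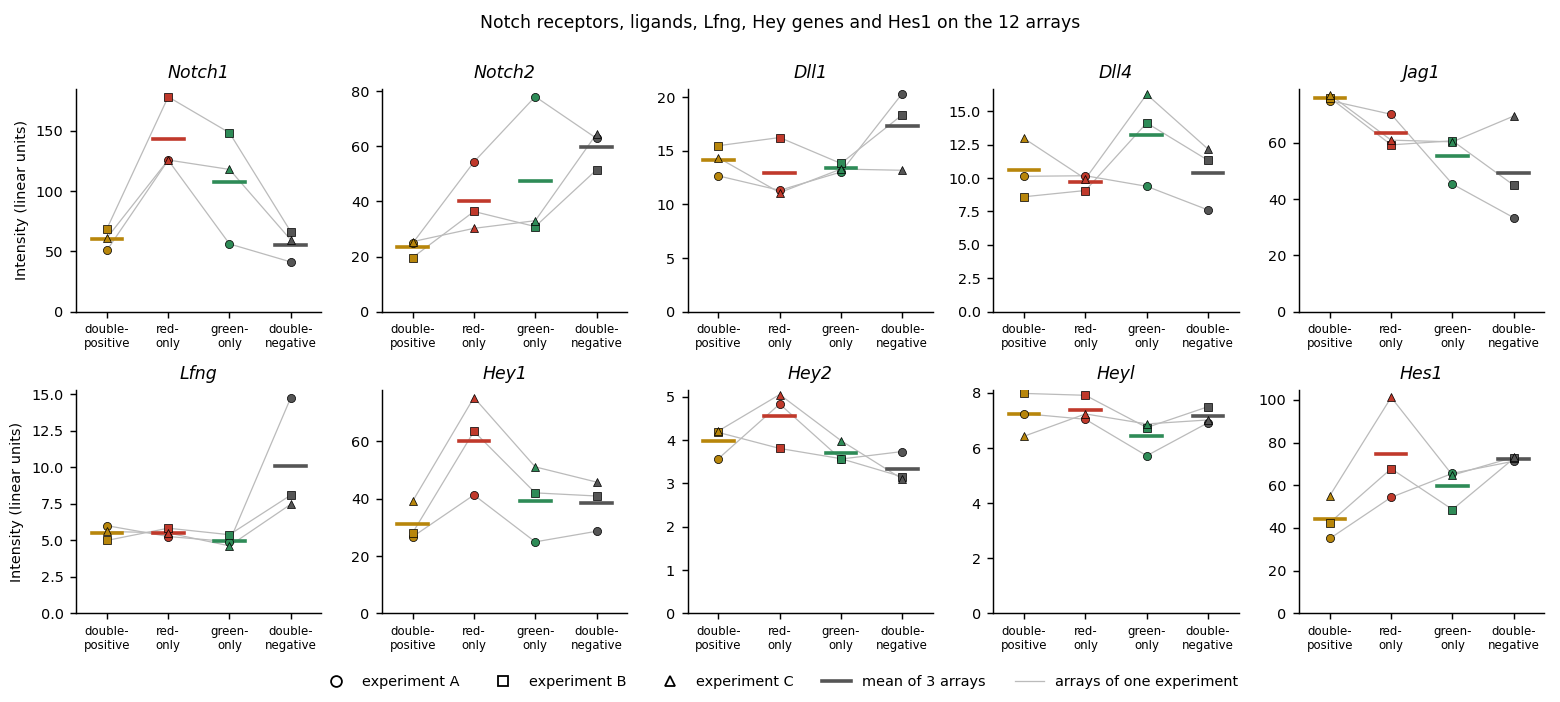
Intensity in linear units (vertical axis, from 0) of each of the 10 genes on the 12 arrays, by population, with circles, squares and triangles for experiments A, B and C, grey lines joining arrays of one experiment and bars for the mean of 3 arrays. Notch1 and Hey1 have their highest means in red-only cells, Notch2 and Lfng in double-negative cells and Jag1 in double-positive cells, and the 12 Hey2 values lie between 3.10 and 5.05.

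Notch1 had its highest mean in red-only cells. Its brighter probe set read 126, 178 and 126 in red-only cells of experiments A, B and C, and 56.2, 148 and 118 in green-only cells. It read 50.9, 68.7 and 61.2 in double-positive cells and 41.2, 66.3 and 59.5 in double-negative cells. The red-only arrays were all above the double-positive and the double-negative arrays, and the green-only values were split, with array A among the low ones. The means were 143 ± 30.3 (SD, n = 3) in red-only, 107 ± 46.9 in green-only, 60.3 ± 8.92 in double-positive and 55.7 ± 13.0 in double-negative cells, a ratio of 2.57 between red-only and double-negative cells. Red-only cells were higher than double-negative cells by 1.31 ± 0.28 (adjusted p = 0.00427, limma), and double-positive cells were lower than red-only cells (-1.18 ± 0.28, adjusted p = 0.0142). The latter did not pass without double-positive A (adjusted p = 0.0613) or red-only B (adjusted p = 0.0656), nor without experiment B (adjusted p = 0.0805) or C (adjusted p = 0.131). The former did not pass without experiment C (1.44 ± 0.41, adjusted p = 0.0553), a fit with 4 arrays fewer. Double-positive and double-negative cells, neighbours in the order of means, differed by 0.12 ± 0.28 (adjusted p = 0.811), and red-only and green-only cells by 0.48 ± 0.28 (adjusted p = 0.471).

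For the green-only population the Notch1 call depended on array A and on the fit. Against double-negative cells the difference was 0.82 ± 0.28 (adjusted p = 0.0559) with all arrays, 1.21 ± 0.20 without green-only A (adjusted p = 0.000650), and 0.82 ± 0.16 with the experiment letter as a replicate block (adjusted p = 0.00268). With all arrays and a filter at the 60th percentile the difference was called too (0.82 ± 0.28, adjusted p = 0.0457). Double-positive against green-only cells gave -0.70 ± 0.28 (adjusted p = 0.193), -1.09 ± 0.20 without that array (adjusted p = 0.00665), and -0.70 ± 0.16 with the replicate block (adjusted p = 0.0187). In each of the 3 experiments the green-only array read above the double-negative and the double-positive array for Notch1. Experiment A had the lowest Notch1 value in every population, though in red-only cells barely below experiment C.

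Notch1 was high with either reporter alone and low with both or neither. This was tested as the interaction, the difference that goes with the green reporter in red cells minus that in cells without red. It was -2.01 ± 0.40 (adjusted p = 0.00630, limma), -2.40 ± 0.26 without green-only A (adjusted p = 8.50e-05), and -2.01 ± 0.23 with the replicate block (adjusted p = 0.000181). The call was lost without experiment B (-1.79 ± 0.42, adjusted p = 0.0793) and without experiment C (-2.04 ± 0.58, adjusted p = 0.108). With all arrays and no block it was the only one of the 9 members called for the interaction, where 10.5% of all genes were called. The other Notch1 probe set read 45.3, 76.1 and 50.5 in red-only, 25.7, 74.1 and 48.0 in green-only, 29.0, 40.8 and 37.9 in double-positive and 23.9, 30.5 and 36.1 in double-negative cells. Its red-only arrays too lay above all double-positive and double-negative arrays, and over the 12 arrays the log2 values of both probe sets correlated at r = 0.94. It was not called by itself, with 0.82 ± 0.28 for red-only against double-negative cells (adjusted p = 0.0586), -0.60 ± 0.28 for double-positive against red-only cells (adjusted p = 0.238) and an interaction of -1.14 ± 0.40 (adjusted p = 0.108).

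Markers of endothelial cells, a lineage in which Notch1 is a main receptor, moved with Notch1. All 10 endothelial markers passed the filter. Their summed level was 612, 836 and 701 in red-only cells of experiments A, B and C, 414, 1069 and 1015 in green-only cells, 277, 340 and 385 in double-positive cells and 221, 333 and 338 in double-negative cells. On the red-only arrays and on green-only B and C, both the sum and Notch1 were above all double-positive and double-negative arrays. Green-only A was the lowest of the 6 red-only and green-only arrays in both. There the sum (414) was still above all double-positive and double-negative arrays, and Notch1 (56.2) was not. The sum was highest on green-only B and C, and Notch1 on red-only B. Kdr, the main VEGF receptor of endothelial precursors, read 320, 465 and 370 in red-only and 67.4, 124 and 133 in double-negative cells. On each red-only array Kdr alone made up the larger part of the sum. Cdh5, the endothelial cadherin, read 38.7, 50.6 and 45.5 in red-only and 9.38, 22.4 and 24.7 in double-negative cells. Pecam1, a surface marker of endothelium, lay between 8.79 and 25.3 on the 12 arrays. In limma 3 of the 10 markers (Eng, Kdr and Tek) were called higher for red-only against double-negative cells. Cdh5 was not called there. For green-only against double-negative cells 6 were called higher (Cdh5, Eng, Esam, Flt1, Kdr and Tek). The interaction was called for 7 of the 10. The part of endothelial cells in the Notch1 result was not tested.

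**Figure D2:**
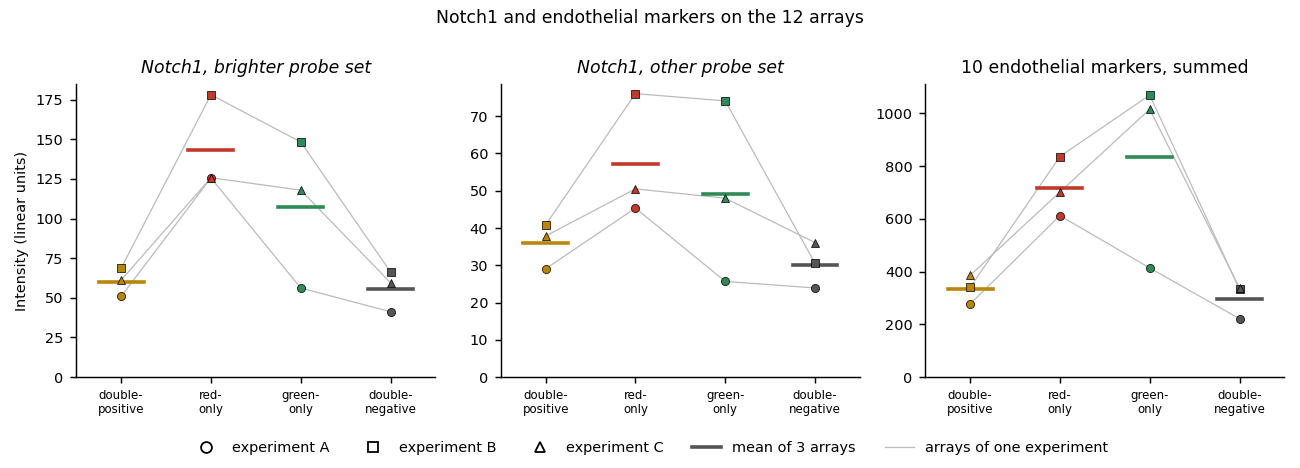
Intensity in linear units (vertical axes, from 0) by population for both Notch1 probe sets and for the sum of 10 endothelial markers, with symbols for experiments A, B and C, grey lines joining arrays of one experiment and bars for the mean of 3 arrays. In all 3 panels the means of red-only and green-only cells lie above those of double-positive and double-negative cells, and green-only A lies below green-only B and C.

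Notch2, the other receptor, ran from its lowest level in double-positive cells to its highest in double-negative cells. It read 24.8, 19.6 and 25.4 in double-positive cells of experiments A, B and C, and 54.3, 36.3 and 30.2 in red-only cells. It read 78.0, 30.9 and 33.0 in green-only cells and 62.8, 51.4 and 64.4 in double-negative cells. The double-positive arrays were below all others, and green-only A was the highest of the 12. The means were 23.3 ± 3.17 (SD, n = 3), 40.3 ± 12.5, 47.3 ± 26.6 and 59.6 ± 7.09 in the same order, a ratio of 0.391 between double-positive and double-negative cells. The log2 fold change between these populations was -1.22 ± 0.27 (adjusted p = 0.00407, limma). Double-positive cells were also below red-only cells by value (-0.67 ± 0.27, adjusted p = 0.150) and below green-only cells (-0.80 ± 0.27, adjusted p = 0.121), and both were called with the replicate block (adjusted p = 0.0377 and 0.0258). Without green-only A, the first of these was called (adjusted p = 0.0144) and the second was -0.40 ± 0.18 (adjusted p = 0.296). Without that array Notch2 was also lower in red-only (-0.55 ± 0.16, adjusted p = 0.0240) and in green-only (-0.82 ± 0.18, adjusted p = 0.00567) than in double-negative cells, where all arrays gave -0.55 ± 0.27 and -0.42 ± 0.27 (adjusted p = 0.183 and 0.344).

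The other Notch2 probe set did not follow this order. It was dim, between 9.56 and 12.4 on the 12 arrays, and gave -0.13 ± 0.07 for double-positive against double-negative cells (adjusted p = 0.239). The log2 values of the 2 Notch2 probe sets correlated at r = 0.24 over the 12 arrays, so the Notch2 result rests on the brighter one.

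Among the ligands, Jag1 was highest in double-positive cells by its brightest probe set. It read 75.1, 76.1 and 77.2 there in experiments A, B and C, 70.2, 59.3 and 61.01 in red-only cells, 45.4, 60.8 and 60.4 in green-only cells and 33.4, 45.0 and 69.6 in double-negative cells. The 3 double-positive values lay within a few units of each other and above the other 9, whereas the double-negative arrays were spread widely. The means were 76.1 ± 1.04 (SD, n = 3), 63.5 ± 5.85, 55.5 ± 8.79 and 49.3 ± 18.5. Jag1 in double-positive cells exceeded its double-negative level by 0.64 ± 0.19 (adjusted p = 0.0192, limma), a ratio of 1.54. This call was lost without double-negative A (0.42 ± 0.16, adjusted p = 0.0831), double-negative B (adjusted p = 0.0604) or double-positive C (adjusted p = 0.0528), and without experiment A (adjusted p = 0.0693) or B (adjusted p = 0.170). Double-positive cells differed from the red-only and the green-only population by 0.25 ± 0.19 (adjusted p = 0.490) and 0.44 ± 0.19 (adjusted p = 0.229). Without double-negative C, the highest of its group, Jag1 was also higher in red-only (0.65 ± 0.14, adjusted p = 0.00622) and green-only cells (0.46 ± 0.14, adjusted p = 0.0398) against double-negative cells, where all arrays gave 0.39 ± 0.19 and 0.20 ± 0.19 (adjusted p = 0.167 and 0.535). Its 2 other probe sets were dim, at 6.09 to 12.5 and 5.90 to 9.07, and gave 0.28 ± 0.14 and 0.20 ± 0.08 for double-positive against double-negative cells (adjusted p = 0.148 and 0.0926). On the dimmer of them red-only cells had the highest mean, and their difference from double-negative cells was called (0.25 ± 0.08, adjusted p = 0.0452).

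The Delta ligands were low in all populations. Dll1, a ligand of presomitic mesoderm and of neural and endothelial cells, lay between 11.1 and 20.3, with means of 17.3 ± 3.69 in double-negative, 14.2 ± 1.42 in double-positive, 13.4 ± 0.403 for green-only and 12.9 ± 2.90 for red-only cells (SD, n = 3 each). Its double-negative values of 20.3, 18.3 and 13.2 overlapped those of each other population. It was not called, with -0.33 ± 0.13 for red-only (adjusted p = 0.0975), -0.28 ± 0.13 for green-only (adjusted p = 0.182) and -0.22 ± 0.13 for double-positive against double-negative cells (adjusted p = 0.269). Without double-negative C, the lowest of its group, Dll1 was lower than in double-negative cells in red-only (-0.48 ± 0.12), green-only (-0.42 ± 0.12) and double-positive cells (-0.36 ± 0.12) (adjusted p = 0.0173, 0.0346 and 0.0486). Without red-only B the first was -0.47 ± 0.13 (adjusted p = 0.0247).

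Dll4, the main ligand of arterial endothelium and of early endocardium, lay between 7.62 and 16.3. Its 2 highest values, 14.1 and 16.3, were those of green-only B and C, while green-only A read 9.38. The means were 13.3 ± 3.52 in green-only, 10.6 ± 2.21 in double-positive, 10.4 ± 2.42 in double-negative and 9.73 ± 0.582 in red-only cells (SD, n = 3 each). Green-only against double-negative cells gave 0.26 ± 0.16 (adjusted p = 0.316), with a higher value in each of the 3 experiments, and 0.43 ± 0.14 without green-only A (adjusted p = 0.0494). The second Dll4 probe set, at 6.97 to 10.9, gave 0.22 ± 0.11 (adjusted p = 0.204). Green-only B and C were also the arrays with the highest summed endothelial markers, and the part of those cells was not tested.

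Lfng codes for a glycosyltransferase that modifies the Notch receptor and changes which ligands activate it. It read 14.8, 8.09 and 7.47 in double-negative cells of experiments A, B and C. In double-positive cells it read 6.00, 4.99 and 5.61, in red-only cells 5.26, 5.83 and 5.51, and in green-only cells 4.91, 5.39 and 4.62. The double-negative arrays were above all others, and they were the only 3 of the 12 on which Lfng lay above its array's median, so the size of the change is uncertain. It was lower in double-positive (-0.53 ± 0.14, adjusted p = 0.0126), red-only (-0.53 ± 0.14, adjusted p = 0.0169) and green-only cells (-0.61 ± 0.14, adjusted p = 0.00808) than in double-negative cells. The 3 comparisons share the double-negative arrays, of which A was the highest. Without that array the differences were -0.30 ± 0.08, -0.30 ± 0.08 and -0.39 ± 0.08, all still called (adjusted p = 0.0149, 0.0212 and 0.00644). The call for red-only cells was lost without red-only A (adjusted p = 0.0531) and without each experiment in turn (adjusted p = 0.0610, 0.0699 and 0.0554 for A, B and C). Without experiment B the calls for double-positive (adjusted p = 0.0720) and green-only cells (adjusted p = 0.0534) were lost as well. Among the 3 reporter-positive populations the differences were between -0.00 and 0.09 (lowest adjusted p = 0.844).

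The second Lfng probe set gave -0.25 ± 0.08 for double-positive and -0.27 ± 0.08 for red-only cells (adjusted p = 0.0297 and 0.0245) but -0.18 ± 0.08 for green-only cells (adjusted p = 0.137). Lfng is a known oscillating gene of presomitic mesoderm, and the summed level of 6 markers of that tissue stayed between 32.6 and 38.0 on all arrays, with Tbx6, Msgn1 and Mesp2 at 4.63 to 7.54. The markers that were high on the double-negative arrays were those of other cells. The 5 pluripotency markers summed to 1298 to 1583 there against 90.2 to 132 elsewhere, and 5 markers of primitive blood to 1068 to 1960 against 57.5 to 142. In limma 3 of these 5 blood markers were called (Hba-x, Hbb-bh1 and Hbb-y). They were lower for all 3 reporter-positive populations set against the double-negative one. The rest of the 5 had no unadjusted p under 0.05 there. The part of pluripotent and blood cells in the Lfng result was not tested.

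Of the 4 target genes, Hey1 was highest in red-only cells. It read 41.3, 63.4 and 75.2 in red-only cells of experiments A, B and C, and 26.7, 28.1 and 39.1 in double-positive cells. It read 24.9, 42.0 and 51.0 in green-only and 28.6, 40.9 and 45.7 in double-negative cells. In each population experiment A was lowest and C highest, and the red-only array was the highest of its experiment in all 3. The means were 59.9 ± 17.2 (SD, n = 3) in red-only, 39.3 ± 13.3 in green-only, 38.4 ± 8.83 in double-negative and 31.3 ± 6.78 in double-positive cells. Hey1 was lower in double-positive than in red-only cells (-0.83 ± 0.25, adjusted p = 0.0481, limma), a ratio of 0.522. This call is at the threshold and was kept in 10 of 24 alternatives, with adjusted p from 0.000204 (replicate block) to 0.357. Among the 24, the fit of next brightest probe sets used the same probe set, since Hey1 has no other. Leaving out 1 array ended it for double-positive A and B, red-only B and C, green-only B, and double-negative B and C (adjusted p = 0.0555 to 0.173). The green-only and double-negative arrays are not part of this difference. Without them it stayed at -0.83, and the shared estimate of the spread changed.

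With the replicate block, which takes out the shared order of experiments, red-only cells were also called higher in Hey1 than double-negative cells (0.58 ± 0.10, adjusted p = 0.00133) and than green-only cells (0.57 ± 0.10, adjusted p = 0.00706). Without the block these were 0.58 ± 0.25 (adjusted p = 0.127) and 0.57 ± 0.25 (adjusted p = 0.301), and the groups overlapped. The first was also called without red-only A (0.81 ± 0.25, adjusted p = 0.0438). The interaction for Hey1 was -0.84 ± 0.36 (adjusted p = 0.173), -0.84 ± 0.15 with the block (adjusted p = 0.00270) and -1.10 ± 0.31 without green-only A (adjusted p = 0.0331). Green-only and double-negative cells, next to each other in the order of means, differed by 0.00 ± 0.25 (adjusted p = 0.997).

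Hes1, a repressor used in many tissues, was lowest in double-positive cells. It read 35.1, 42.5 and 55.2 there in experiments A, B and C, 54.4, 67.8 and 101 in red-only cells, 65.6, 48.7 and 64.7 in green-only cells and 71.3, 72.6 and 73.1 in double-negative cells. The double-negative arrays lay close together, the red-only arrays spread from below the highest double-positive value to the highest of all, and double-positive arrays were the lowest of each experiment. The means were 44.3 ± 10.2 (SD, n = 3), 74.4 ± 24.1, 59.7 ± 9.53 and 72.3 ± 0.948. Hes1 in double-positive cells was below its double-negative level (-0.68 ± 0.19, adjusted p = 0.0166, limma), with no overlap, and below its red-only level (-0.68 ± 0.19, adjusted p = 0.0381), with overlap. The first call was lost without double-positive A (-0.54 ± 0.21, adjusted p = 0.0758), and without experiment A (adjusted p = 0.0534) or B (adjusted p = 0.129). The second ended on leaving out double-positive A or B, red-only B or C, or 1 of the double-negative arrays (adjusted p = 0.0529 to 0.156). Without red-only C it was -0.44 ± 0.17, and leaving out a double-negative array kept it at -0.68. This second call was also lost without experiment B (adjusted p = 0.207) or C (adjusted p = 0.0820). It was lost as well with no filter on low values (adjusted p = 0.0631) and with only the arrays compared (adjusted p = 0.0750). Red-only and double-negative cells differed by -0.00 ± 0.19 (adjusted p = 0.993).

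The other 2 Hey genes were dim. Heyl, known from vascular smooth muscle and somites, lay between 5.72 and 7.98 and was not called in any comparison, with log2 fold changes from -0.09 to 0.13. Its 2 other probe sets lay between 4.65 and 7.85. Hey2, a gene of ventricular myocardium and arterial endothelium, read 3.57, 4.18 and 4.21 in double-positive, 4.83, 3.81 and 5.05 in red-only, 3.56, 3.57 and 3.99 in green-only and 3.73, 3.15 and 3.10 in double-negative cells. All were under their array's median, near the lowest values of the table (2.09). In a fit without the filter Hey2 differed by 0.22 ± 0.07 between red-only and double-negative cells (adjusted p = 0.0431), a call between values that lie close to this floor.

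**Figure D3:**
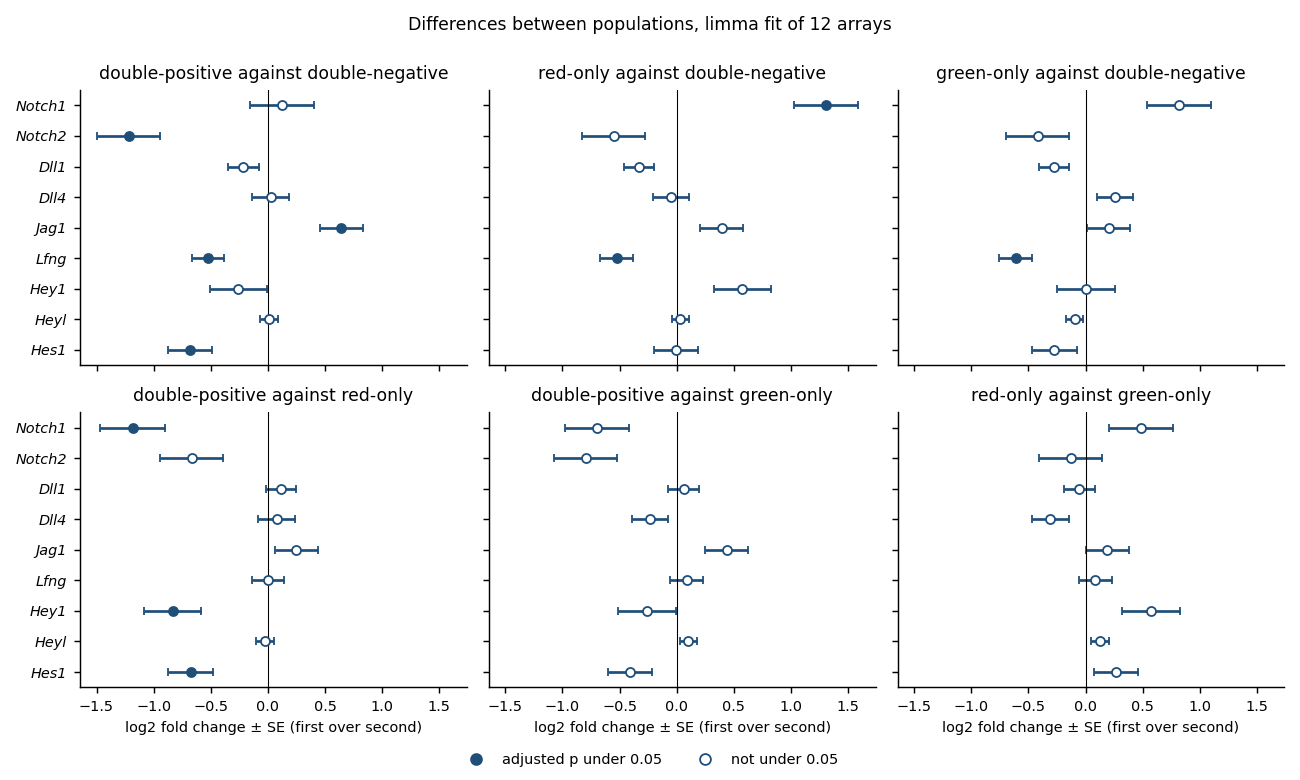
Log2 fold change (horizontal axis, first population over second, limma fit of 12 arrays, bars for ± 1 SE) of the 9 tested members in each of the 6 pairwise comparisons; filled points have an adjusted p under 0.05. Filled points number 4 for double-positive, 2 for red-only and 1 for green-only against double-negative cells, 3 for double-positive against red-only cells, and none in the other 2 panels.

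In the F-test over the 4 populations 4 members were called, Notch1 (adjusted p = 0.00736), Lfng (0.0147), Notch2 (0.0217) and Hes1 (0.0405), where 32.3% of all genes were. With the replicate block Hey1 (adjusted p = 0.000321) and Jag1 (adjusted p = 0.0407) were called as well. Without green-only A the F-test also called Hey1 (adjusted p = 0.0284). For the interaction the block added Hey1, given above, and Lfng (0.61 ± 0.19, adjusted p = 0.0464, against 0.0756 without it). Lfng was also called there without double-negative A (0.39 ± 0.11, adjusted p = 0.0491) or C (0.74 ± 0.19, adjusted p = 0.0331). The pattern over the 12 arrays was most like that of Notch1 in Ece1 (Pearson r = 0.98), Cgnl1 (0.97) and Elk3 (0.97). For Notch2 the genes were Eomes (0.97), Tle3 (0.96) and Rapgef2 (0.96), for Lfng Dclk2 (0.96), Lhx2 (0.95) and Lrp2 (0.95), and for Hes1 Cep83 (0.97), Zmat2 (0.92) and Tmem248 (0.91). These are correlations of log2 values over 12 arrays that share populations and experiments, given as a description. Eomes, a T-box factor of early mesoderm, shared the outlying array of Notch2, with 64.3, 25.01 and 27.3 in green-only cells of experiments A, B and C.

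A list of 47 other genes of the pathway was measured beside the members. Of these 44 had a probe set and 42 passed the filter. In double-positive against double-negative cells 17 were called, 8 higher and 9 lower (median of 42, 0.03), in red-only cells 14, 9 higher and 5 lower (0.06), and in green-only cells 11, 6 higher and 5 lower (0.00). The backgrounds are those given above, and nothing particular to the list is drawn from these counts.

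Of 7 tested genes of Notch cleavage, 4 were higher in red-only cells, 3 in green-only cells and 3 in double-positive cells when set against the double-negative population, and none was lower, where 10.9%, 9.33% and 13.9% of all genes were higher. For the interaction 3 of the 7 were called, Adam10, Aph1a and Furin, all with a negative value, where 10.5% of all genes were called. Other groups of the list also moved in a single direction against double-negative cells. Of 8 genes of Notch turnover and trafficking, 3 were lower in red-only, 3 in green-only and 2 in double-positive cells. None of the 8 was higher. Of 4 genes of ligand endocytosis, 1, 1 and 2 were higher in the same order, and none was lower. Nothing particular to cleavage is drawn from these counts. Furin, the protease that first cuts the receptor in the secretory path, read 87.1, 79.3 and 82.7 in double-positive, 109, 101 and 97.1 in red-only, 81.5, 82.7 and 92.8 in green-only and 35.6, 41.0 and 46.2 in double-negative cells. All 9 reporter-positive arrays lay above the double-negative ones, in the order just given by 0.96 ± 0.09, 1.25 ± 0.09 and 1.0 ± 0.09 (adjusted p = 6.08e-06, 1.75e-06 and 9.04e-06). Adam10, which makes the ligand-dependent cut, was higher by 0.77 ± 0.11, 0.96 ± 0.11 and 0.68 ± 0.11 (adjusted p = 0.000101, 3.79e-05 and 0.000549). Both proteases cut many other proteins.

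Among the other receptors and ligands, Notch3, a receptor of vascular smooth muscle, was lower in double-positive cells than in each other population. It read 41.9, 33.0 and 42.2 in double-positive, 75.7, 63.6 and 61.7 in red-only, 81.0, 53.3 and 54.6 in green-only and 69.7, 68.4 and 74.4 in double-negative cells. As for Notch2, the double-positive arrays were the lowest and green-only A the highest. The differences were -0.80 ± 0.14 against double-negative (adjusted p = 0.000768), -0.72 ± 0.14 against red-only (adjusted p = 0.00493) and -0.62 ± 0.14 against green-only cells (adjusted p = 0.0233). The last was lost without double-positive A (adjusted p = 0.0536) or B (adjusted p = 0.0969). It was also lost without experiment B (adjusted p = 0.135) or C (adjusted p = 0.113), and with only the arrays compared (adjusted p = 0.107). The call against red-only cells was lost without experiment B (adjusted p = 0.0784). Without green-only A Notch3 was lower in green-only than double-negative cells (-0.37 ± 0.11, adjusted p = 0.0328). Its probe set may share probes with related transcripts, and its other one gave -0.47 ± 0.16 against double-negative cells (adjusted p = 0.0502). Jag2, a second Jagged ligand, read 35.5, 27.5 and 35.9 in double-positive and 18.8, 15.5 and 16.9 in double-negative cells, and was higher in double-positive cells than in double-negative, red-only and green-only cells, by 0.80 ± 0.10, 0.60 ± 0.10 and 0.43 ± 0.10 (adjusted p = 4.04e-05, 0.00140 and 0.0217). The third of these Jag2 calls was lost without double-positive A (adjusted p = 0.0952) or C (adjusted p = 0.0811), green-only A (0.43 ± 0.11, adjusted p = 0.0508) or green-only C (adjusted p = 0.0627). That call was also lost without experiment A (adjusted p = 0.150) or C (adjusted p = 0.271), and with only the arrays compared (adjusted p = 0.0860). The other Jag2 probe set was called in the same comparisons, by 0.70 ± 0.08, 0.69 ± 0.08 and 0.59 ± 0.08 (adjusted p = 2.84e-05, 0.000111 and 0.00217). Both Jagged genes thus had their highest mean in double-positive cells.

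Dlk1, a Delta-like protein without the domain that activates Notch and an imprinted gene, had its highest level in red-only cells, at 528, 637 and 622, against 113, 81.3 and 101 in double-negative cells. Green-only cells, at 189 to 202, and double-positive cells, at 171 to 324, lay between. The difference was 2.56 ± 0.19 for red-only against double-negative cells (adjusted p = 1.49e-06) and 1.58 ± 0.19 for red-only against green-only cells (adjusted p = 0.000559). The latter was the one call of the list in that comparison, where 1.32% of all genes were higher and 1.76% lower. Double-positive cells were above double-negative cells by 1.31 ± 0.19 (adjusted p = 0.000135) and below red-only cells (-1.24 ± 0.19, adjusted p = 0.000759), and green-only cells were above double-negative cells by 0.97 ± 0.19 (adjusted p = 0.00231). Without experiment C the Dlk1 calls for red-only against green-only (adjusted p = 0.0552) and green-only against double-negative cells (adjusted p = 0.0624) were lost. Its probe set may share probes with related transcripts.

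In the nucleus, Rbpj was higher in double-negative cells, at 120, 123 and 118, than in the 9 reporter-positive arrays, at 78.8 to 104. Rbpj differed by -0.38 ± 0.09 for green-only, -0.47 ± 0.09 for red-only and -0.52 ± 0.09 for double-positive cells (adjusted p = 0.00780, 0.00189 and 0.000537). The Rbpj call for green-only cells was lost without experiment B (adjusted p = 0.133) or C (adjusted p = 0.110). Of its 2 other probe sets, the brighter one passed for double-positive cells alone (-0.42 ± 0.14, adjusted p = 0.0374) and the third gave -0.10 ± 0.13 (adjusted p = 0.650). Tle1, a corepressor that works with Hes proteins, was lowest in double-positive cells, at 8.23, 5.92 and 9.75, against 53.0, 39.0 and 47.1 in double-negative cells, and also below 27.3 to 61.6 in red-only and 19.8 to 37.8 in green-only cells. Its differences were -2.07 ± 0.27, -1.79 ± 0.27 and -1.29 ± 0.27 (adjusted p = 6.14e-05, 0.000751 and 0.0147), the largest of the list in each of these comparisons of double-positive cells. The other Tle1 probe set gave smaller differences of -0.95 ± 0.15, -0.70 ± 0.15 and -0.52 ± 0.15 (adjusted p = 0.000415, 0.0102 and 0.0825), the last of them not called. Tle1 in green-only against double-negative cells gave -0.78 ± 0.27 (adjusted p = 0.0559), and was called with the replicate block (adjusted p = 0.00681) and without green-only A (-1.04 ± 0.25, adjusted p = 0.00939). The call of Tle1 in double-positive against green-only cells was lost without double-positive B (adjusted p = 0.0574), and without experiment B (adjusted p = 0.129) or C (adjusted p = 0.0744).

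Among genes that restrain the pathway, Nrarp, a feedback gene that is turned on by Notch and limits it, was lower in double-positive than in double-negative (-0.34 ± 0.09, adjusted p = 0.0113) and red-only cells (-0.31 ± 0.09, adjusted p = 0.0431), at 24.0, 28.7 and 26.98 against 33.3, 38.7 and 32.5 and against 32.3, 36.4 and 33.0. The first Nrarp call was lost without double-positive A (adjusted p = 0.0534) or double-negative B (adjusted p = 0.0535), and without experiment A (adjusted p = 0.0545) or C (adjusted p = 0.0730). The second was lost without 1 of 7 arrays, double-positive A or C, red-only A, B or C, double-negative A or green-only C (adjusted p = 0.0543 to 0.169). Leaving out double-negative A or green-only C kept the difference itself at -0.31. That call was also lost without experiment A, B or C (adjusted p = 0.162, 0.118 and 0.221), with quantile normalization (adjusted p = 0.0886) and with an intensity trend (adjusted p = 0.0663). The other Nrarp probe set gave -0.38 ± 0.12 (adjusted p = 0.0348) and -0.31 ± 0.12 (adjusted p = 0.142). Dtx1, an E3 ligase that binds the Notch intracellular domain, was lower in all 3 reporter-positive populations, at 20.3 to 29.0 against 41.5 to 49.3 (-0.88 ± 0.09 in red-only, -0.73 ± 0.09 in double-positive and -0.70 ± 0.09 in green-only cells; adjusted p = 2.71e-05, 5.85e-05 and 0.000184). Its other probe set was dim and gave 0.05 ± 0.08 for double-positive cells (adjusted p = 0.701).

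Between double-positive and red-only cells 6 list genes were called, Jag2 and Kat2b higher and Tle1, Dlk1, Notch3 and Nrarp lower, with a median over 42 genes of -0.07. Of all genes 5.94% were higher and 6.15% lower there. Between double-positive and green-only cells 4 were called, Jag2 and Kat2b higher and Tle1 and Notch3 lower (median -0.01), against 2.85% of all genes higher and 2.77% lower. Kat2b, a histone acetyltransferase that joins the Notch complex, differed by 0.45 ± 0.07 and 0.38 ± 0.07 (adjusted p = 0.00119 and 0.00978). The first Kat2b call was lost without experiment C (adjusted p = 0.0570). The second was lost without experiment A, B or C (adjusted p = 0.0658, 0.0997 and 0.123). For the interaction 6 of 42 were called, where 10.5% of all genes were. Among the 6 were Dlk1 (-2.22 ± 0.26, adjusted p = 0.000280), Furin (-1.29 ± 0.13, adjusted p = 0.000118), Adam10 (-0.87 ± 0.15, adjusted p = 0.00290) and Dtx1 (0.85 ± 0.13, adjusted p = 0.00156). The Adam10 call was lost without experiment B (adjusted p = 0.0823), and the Dtx1 call without experiment B (adjusted p = 0.0563) or C (adjusted p = 0.0549). Of the other Adam10 probe sets, the brighter gave an interaction of -0.66 ± 0.23 (adjusted p = 0.107) and the dimmer -0.60 ± 0.14 (adjusted p = 0.0212). The other Dtx1 probe set gave 0.04 ± 0.11 (adjusted p = 0.896).

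**Figure D4:**
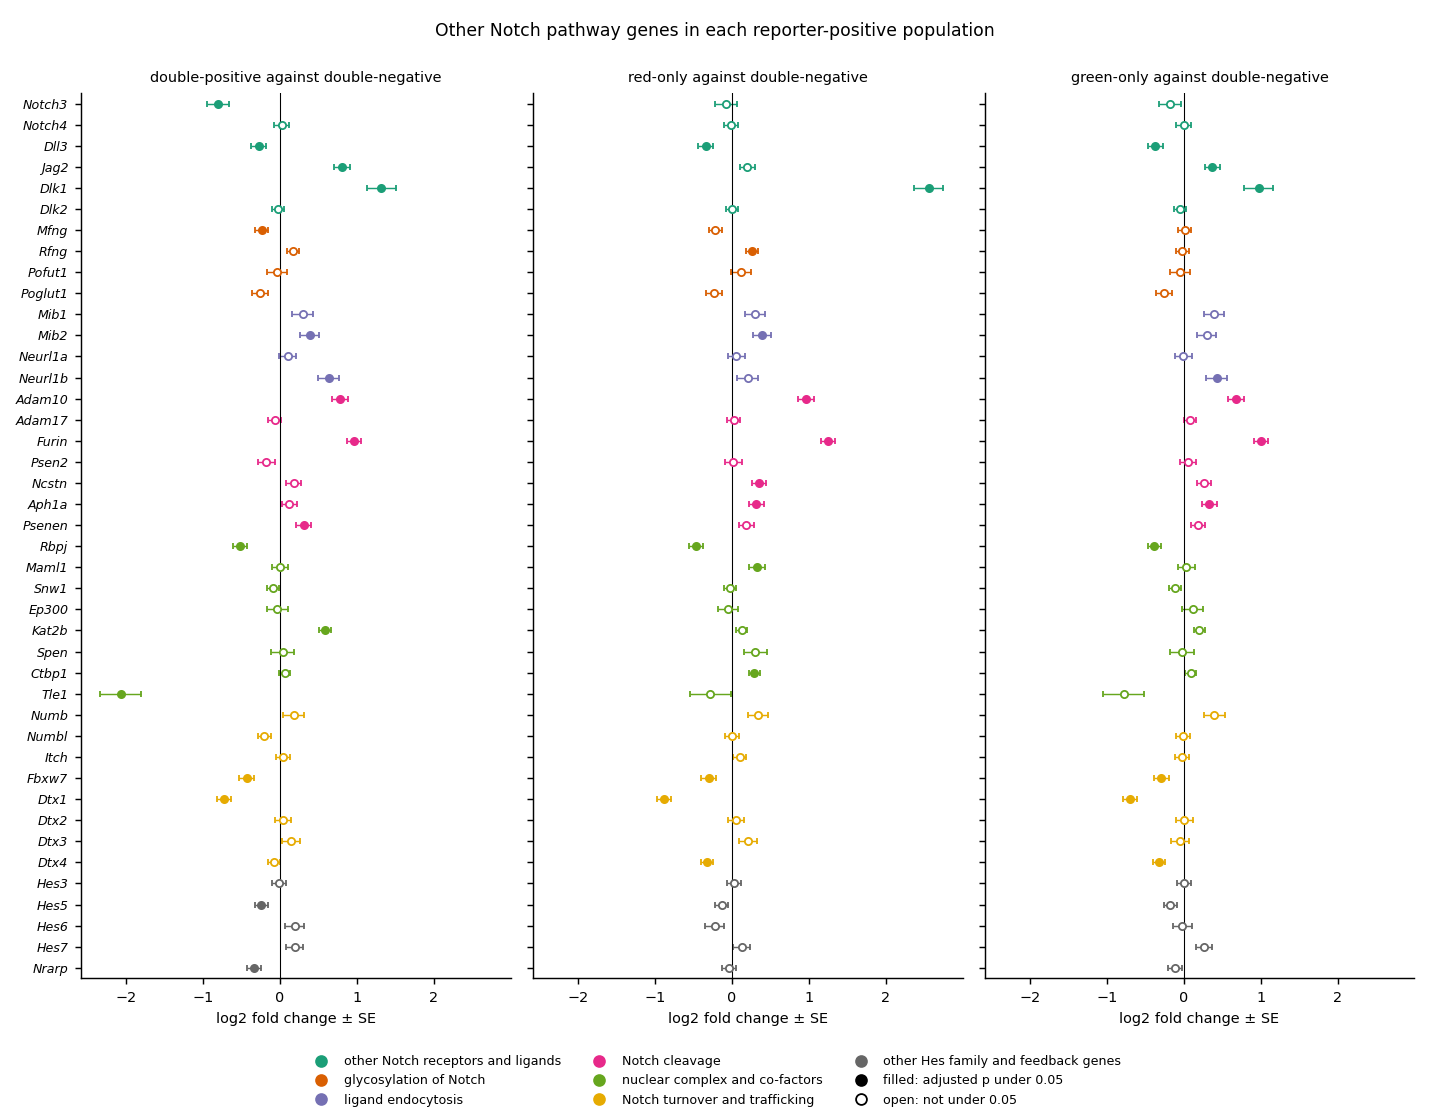
Log2 fold change (horizontal axis, limma, bars for ± 1 SE) of the 42 tested genes of the pathway list against double-negative cells, with a panel for each reporter-positive population, coloured by role; filled points have an adjusted p under 0.05. The filled points number 17, 14 and 11 in the 3 panels, and Tle1 (-2.07) and Dlk1 (2.56 in red-only cells) lie farthest out.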

How the data were processed

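The authors' deposited values are probe set intensities on a linear scale, from 2.09 to 8820, made with MAS5 per the submitters' processing notes; version and scaling target are not given in the sources used here. No detection calls were used. Of 45101 probe sets, 64 controls and 932 with several genes were left out, 9160 listed no gene, and 34945 had 1; 204 symbols had no current Entrez entry. For each of 18193 genes the probe set brightest on average was taken as log2(intensity + 4.10), where 4.10 is the 25th percentile of the values, without normalizing further. Genes under the 40th percentile of probe set means (3.22) were left out, leaving 13698. Models were fitted to all 12 arrays with limma 3.58.1 in R 4.3.3 (lmFit, eBayes; 8 residual degrees of freedom), with two-sided tests adjusted by Benjamini-Hochberg, a threshold of 0.05 and no minimum fold, and tested on simulated data. Hey2 was read from a fit without the filter. Figures used matplotlib 3.10.9 in Python 3.11.15.

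The experiment letter pairs the arrays: their departures from the population means had correlations of 0.116 to 0.424 (mean 0.264) in all 18 pairs of arrays of one experiment in different populations, while the labels do not say what a letter shares. A fit with the letter as a replicate block was an alternative. Other alternatives were pseudocounts of 1 and 6.52, a filter at the 60th percentile or none, quantile normalization, the next brightest probe set of each member, an intensity trend with robust variance, only the arrays compared, and each array or, added after seeing the data, each experiment left out. A member without a next brightest probe set was read again from its only one.

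The 10 members, the pathway list and the marker lists were chosen with earlier results of these data known. Named were all members with their probe sets, the 4 largest called changes of the pathway list in each comparison, Rbpj and Nrarp always, the defining markers of cell types known to use a member, and, for members passing the F-test, the 3 genes with the highest correlation.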

Additional observations from a re-analysis of the deposited data

Results flagged for a closer look

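The difference in Notch1 between populations sorted with and without green differed between those sorted with and without red. Among red populations it was -1.18 ± 0.28 on the log2 scale, and among those without red it was 0.82 ± 0.28, so that the difference between them was -2.01 ± 0.40 (adjusted p = 0.00630, limma). It was not called without experiment B (-1.79 ± 0.42, adjusted p = 0.0793) or experiment C (-2.04 ± 0.58, adjusted p = 0.108). The second Notch1 probe set gave -1.14 ± 0.40 (adjusted p = 0.108). Endothelial markers moved with Notch1, with 7 of 10 called for the same interaction, where 10.5% of all genes were, and their part was not tested.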

How the results depend on the processing

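No result reversed. Counts of called members, in the order double-positive, red-only and green-only against double-negative, double-positive against red-only and against green-only, red-only against green-only, interaction and F-test, were 4, 2, 1, 3, 0, 0, 1 and 4. The replicate block gave 2 for green-only against double-negative, 2 for double-positive against green-only, 1 for red-only against green-only and 3 for the interaction; besides the calls given beside the results it changed no other call of a member. With the next brightest probe set of each member the counts were 2, 1, 0, 1 for the first 4 comparisons, 0 for the interaction and 1 for the F-test. Dll1, Hey1 and Hes1 have no other probe set, so theirs was used again there. The calls of Hes1 in double-positive against double-negative cells, in double-positive against red-only cells and in the F-test come from that same probe set. A filter at the 60th percentile gave 1 for red-only against double-negative, and no filter gave 1 for double-positive against red-only.

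Leaving out each array in turn gave 3 to 5, 2 to 4, 1 to 4, 0 to 4, 0 to 1, 0, 1 to 2 and 2 to 5 called members. Without experiment A the counts were 2 for double-positive and 3 for green-only against double-negative, 1 for double-positive against green-only and 2 for the interaction. Without experiment B they were 1, 1 and 0 against double-negative, 0 for double-positive against red-only, 0 for the interaction and 0 for the F-test. Without experiment C they were 1 for red-only against double-negative, 0 for double-positive against red-only, 0 for the interaction and 2 for the F-test. These fits have fewer samples.

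For the pathway list, each array left out gave 11 to 19, 8 to 15 and 8 to 14 called genes against double-negative cells, 5 to 10 for double-positive against red-only and 2 to 4 for double-positive against green-only. Without experiment B there were 11, 6 and 4 against double-negative cells and 1 for double-positive against green-only. Without experiment C there were 11, 7 and 4, then 0 for double-positive against green-only and 0 for red-only against green-only. Only the arrays compared gave 2 for double-positive against green-only.

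Lfng and Hey2 lay near or under the array medians, and the signal over background limits the size of their changes.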
